A study of Mus musculus with 4 samples.

Results

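The salivary peroxidase gene Lpo, its relatives Mpo and Epx, the dual oxidase genes Duox1 and Duox2 and their maturation factors Duoxa1 and Duoxa2 were examined in SGs of Myd88-/- and Myd88+/+ mice. They were chosen by symbol, as every non-control probe whose gene name on the array equals 1 of these 7 names. All 7 names were found, on 12 probes, among 34844 gene names on the array. Gene expression was measured on 4 1-colour Agilent whole mouse genome arrays, 2 labelled as Myd88-null (Myd88-/-) and 2 as wild type (Myd88+/+). All mice were C57/BL6 females of 10 weeks of age by their labels. By the labels, RNA came from SMGs together with SLGs, from which lymph nodes, connective tissue and fat had been removed. The study's description of the arrays names SMGs alone and another number of mice per genotype, and the files do not settle which holds. Myd88-/- arrays and Myd88+/+ arrays below are named by these labels. Nothing in the labels says whether each array holds a separate animal, so the p-values below measure only the spread between these arrays, which may be technical.

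Peroxidases of this family carry a haem group and use hydrogen peroxide to oxidize small anions. In saliva, lactoperoxidase (Lpo) turns thiocyanate into hypothiocyanite, which inhibits bacterial growth. Dual oxidases are membrane NADPH oxidases that release the hydrogen peroxide this reaction needs, and each leaves the endoplasmic reticulum with the help of a maturation factor, Duoxa1 for Duox1 and Duoxa2 for Duox2. Myeloperoxidase (Mpo) and eosinophil peroxidase (Epx) are made by neutrophil and eosinophil precursors in the bone marrow and stored in granules.

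Each probe is a 60-base oligonucleotide, and the probes of Lpo, Mpo and Duox1 are shown here by 30 of their bases. Capitals mark AATAAA, the hexamer that commonly precedes a polyadenylation site. The probe of Lpo lies at chr11:87620077-87620136, those of Mpo at chr11:87617840-87617899 and chr11:87615121-87615180, and that of Duox1 at chr2:122173491-122173550 (NCBI37, mm9). The Lpo probe reads the minus strand and the other 3 read the plus strand.
Lpo, A_51_P175667: ccctctccctgaatgagcactggctgagga
Mpo, A_55_P1995537: tatttgtacctgaggttcacactAATAAAa
Mpo, A_55_P2066505: cctgccaaactgaatcgccagaatcaaatt
Duox1, A_51_P475138: tgtgttcttcctctcttcaaaatggttggg
The hexamer starts at base 54 of the first Mpo probe, called the downstream probe below, and the other Mpo probe lies 2659 bases upstream of it on the chromosome. No stretch longer than 8 bases was shared by any pair of the 12 probes on either strand.

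Signals are given as the log2 processed signal of a spot minus the 75th percentile of its array, so that 0 is the 75th percentile. That percentile was a signal of 256 and 237 on Myd88-/- arrays 1 and 2 and of 321 and 269 on Myd88+/+ arrays 1 and 2. Background was passed well by 29078 and 38087 of 55681 probes for Myd88-/- and by 41281 and 30685 for Myd88+/+, arrays 1 and 2 in order. Fewer dim transcripts could therefore be measured on array 1 of Myd88-/- and array 2 of Myd88+/+. No spot was saturated. Of the 12 probes, 8 were well above background on all 4 arrays, 2 (both of Mpo) on 2 arrays, and 2 (of Epx and of Duoxa1) on none.

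The deleted gene was looked at first. Myd88, the adaptor of Toll-like receptors, had log2 signals of 1.51 and 1.41 in Myd88-/- SGs against 1.15 and 1.07 in Myd88+/+ SGs. Its probe was thus not lower on the arrays labelled Myd88-/-. Which exons the allele lacks is not stated in the sources used here, so its signal alone does not serve as a check of the labels. Every direction below rests on them.

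**Figure D1:**
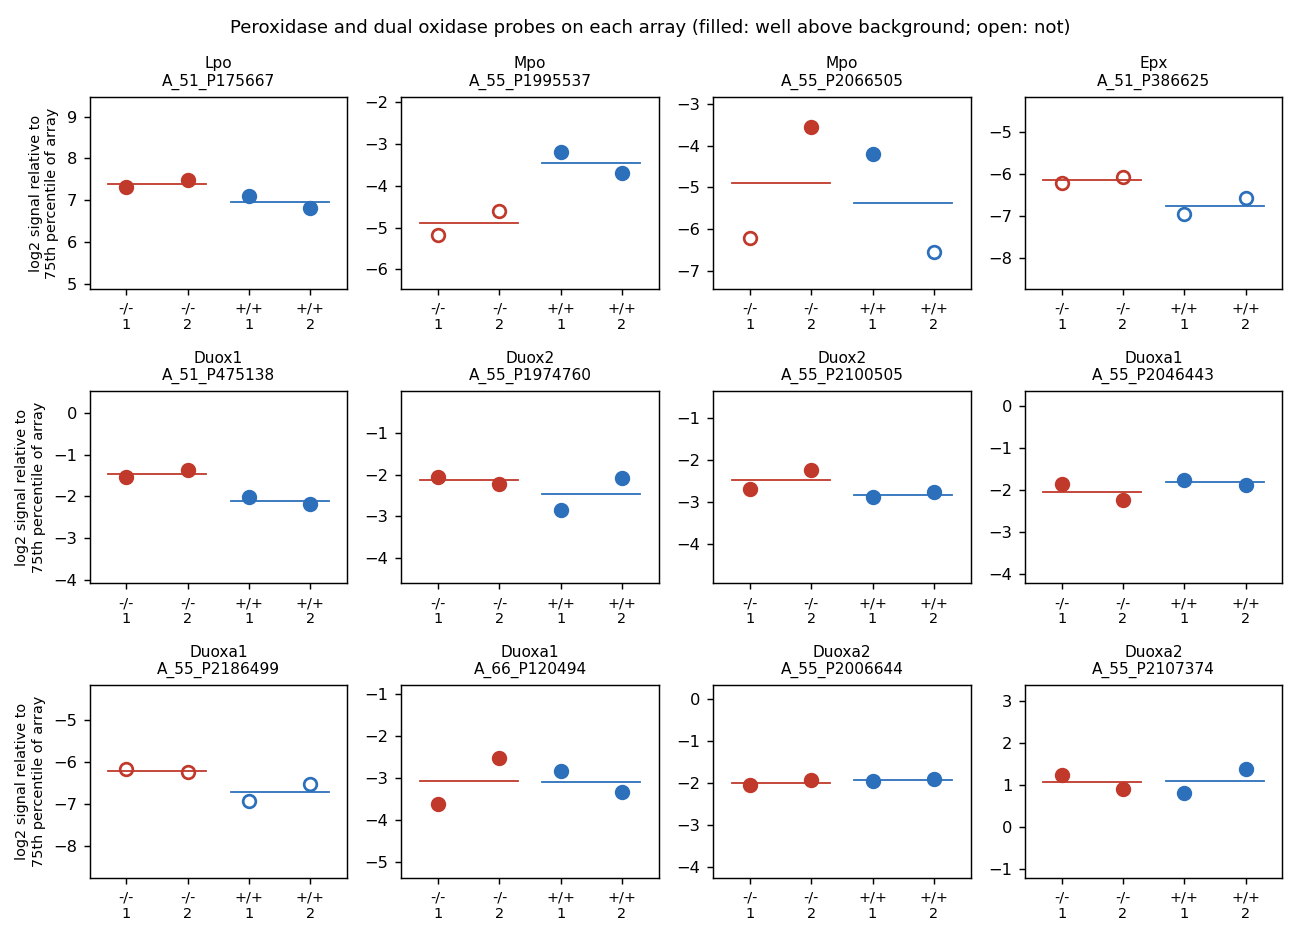
Log2 signal of each of the 12 probes on each array, relative to the 75th percentile of the array. Red points are the arrays labelled Myd88-/- and blue points those labelled Myd88+/+, lines are group means (n = 2), and every panel spans the same number of log2 units. Both Myd88-/- arrays lie above both Myd88+/+ arrays for Lpo and Duox1 and below them for the downstream probe of Mpo, while the open points of Epx mark a probe that was not well above background anywhere.

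Lpo was strongly expressed in all samples. Its log2 signal was 7.31 and 7.48 in Myd88-/- SGs against 7.10 and 6.81 in Myd88+/+ SGs. Both Myd88-/- arrays lay above both Myd88+/+ arrays, with Myd88+/+ array 2 lowest. On the linear scale these values were 158 and 179 times the 75th percentile against 137 and 112 times. The groups differed by 0.44 log2 units (standard error, SE, 0.16; 95% interval -0.0033 to 0.88). limma gave an unadjusted p of 0.0510 and, after Benjamini-Hochberg adjustment over all genes, an adjusted p of 0.303, so Lpo did not pass the threshold of 0.05. The separation of the groups appeared only after scaling. Before it, the processed signals of Lpo were 40566 and 42438 in Myd88-/- SGs against 43961 and 30262 in Myd88+/+ SGs, so that the groups overlapped. Lpo is represented by 1 probe with 1 spot. In whole tissue, more or fewer cells of a type and more or less RNA per cell cannot be told apart.

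Duox1, which encodes a dual oxidase, had log2 signals of -1.54 and -1.37 in Myd88-/- SGs against -2.03 and -2.19 in Myd88+/+ SGs. Again both Myd88-/- arrays were above both Myd88+/+ arrays, and the arrays of a group differed little from each other. The group means were -1.45 ± 0.12 and -2.11 ± 0.11 (SD, n = 2 each). The log2 difference was 0.65 (SE 0.13, 95% interval 0.29 to 1.01), with an unadjusted p of 0.00813 and an adjusted p of 0.204 from limma. Unlike the signal of Lpo, that of Duox1 was also apart before scaling, at 88.3 and 91.7 against 78.8 and 59.1. The probe of Duox1 is printed 10 times on each array, and the SD between these spots was 0.24 and 0.36 log2 units in Myd88-/- SGs against 0.35 and 0.43 in Myd88+/+ SGs. The SE of an array's mean was 0.08 to 0.14 log2 units, which describes the spots of an array and not the spread between samples. With normexp background correction the log2 difference was 0.41.

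Duox2, the other dual oxidase, has 2 probes on the minus strand of chromosome 2. The probe at chr2:122106173-122106232 gave -2.06 and -2.22 in Myd88-/- SGs against -2.85 and -2.08 in Myd88+/+ SGs. The groups overlapped, since Myd88+/+ array 2 lay among the Myd88-/- arrays and only Myd88+/+ array 1 was low. Its log2 difference of 0.33 (SE 0.30, 95% interval -0.54 to 1.19, adjusted p = 0.639 from limma) fell short of the SD of 0.55 between the Myd88+/+ arrays, and it was -0.06 without Myd88+/+ array 1. The probe at chr2:122109146-122109205 gave -2.70 and -2.25 against -2.90 and -2.77. Here the groups did not overlap, but Myd88-/- array 1 exceeded the nearest Myd88+/+ array only slightly. Between the arrays with low numbers of detected probes (Myd88-/- array 1 and Myd88+/+ array 2), the 2 probes of Duox2 differed by 0.02 and 0.07 log2 units, and between the other pair by 0.63 and 0.65. The difference of Duox2 thus came from 1 of these pairs, whereas that of Duox1 was 0.65 and 0.66 in them.

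Of the maturation factors, Duoxa2 had log2 signals of 1.25 and 0.91 in Myd88-/- SGs against 0.82 and 1.38 in Myd88+/+ SGs, at chr2:122128268-122128327. The Myd88+/+ arrays enclosed the Myd88-/- arrays. The log2 difference was -0.02 (SE 0.26, 95% interval -0.76 to 0.72, adjusted p = 0.976 from limma), an interval that holds changes of either direction as large as that of Duox1. A probe 234 bases farther downstream gave -2.06 and -1.94 against -1.95 and -1.91. Those values spread less, and the groups overlapped as well.

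Duoxa1 has 3 probes, which did not behave alike. The probe at chr2:122129336-122129395 gave -1.86 and -2.24 in Myd88-/- SGs against -1.75 and -1.87 in Myd88+/+ SGs, so the groups overlapped. Its log2 difference was -0.24 (SE 0.17, 95% interval -0.73 to 0.26, adjusted p = 0.553 from limma), and it was -0.02 with normexp background correction. The probe at chr2:122131391-122132072 spans 682 bases of the chromosome with its 60, so it crosses a splice junction. It gave -3.61 and -2.54 against -2.84 and -3.35, high on the arrays with many detected probes and low on the others. The third probe, at chr2:122128002-122128061, was well above background on no array, and its signal was a surrogate value of the scanner software on all 4. That probe lies 206 bases from the Duoxa2 probe, on the opposite strand.

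Mpo has 2 probes, neither well above background on all arrays. The downstream probe gave -5.19 and -4.60 in Myd88-/- SGs against -3.20 and -3.71 in Myd88+/+ SGs. It was well above background on both Myd88+/+ arrays and on neither Myd88-/- array, and the groups did not overlap. The processed signals behind these values were 7.03 and 9.81 against 34.8 and 20.6. The probe thus entered the comparison through the Myd88+/+ arrays alone. Because the lower group was not well above background, the difference is given only as a bound, at least 1.46-fold lower in Myd88-/- SGs, with each dim value raised to the lowest signal well above background on its array. With normexp, which adds an offset of 50 to all signals, the log2 difference was -0.03. The upstream probe gave -6.20 and -3.57 in Myd88-/- SGs against -4.20 and -6.55 in Myd88+/+ SGs. It passed background on Myd88-/- array 2 and Myd88+/+ array 1, the arrays with the most detected probes, and its values on the other 2 arrays were surrogates. It was not tested and gives no direction.

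Epx was not detected. Its probe, at chr11:87678288-87678347, gave -6.21 and -6.07 in Myd88-/- SGs against -6.95 and -6.57 in Myd88+/+ SGs, well above background on none. On 3 of the 4 arrays the value was a surrogate. No fold is given for Epx.

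Against this, the background of the whole comparison was wide. Of 22312 genes tested by limma, 0 (0%) passed an adjusted p of 0.05, and 3715 (16.7%) had an unadjusted p under 0.05, with 2190 higher (9.82%) and 1525 lower (6.83%) in Myd88-/- SGs. With trended and robust moderation 482 genes passed the adjusted threshold, with scaling by the median 402, with normexp 79 and with the methods' t-test 1, and Lpo and the other members were not among them. Of the 6 members tested, 0 passed the adjusted threshold, and 2 had an unadjusted p under 0.05, Duox1 (higher) and Mpo (lower). That of Mpo rests on Myd88-/- values below background and carries no weight as a test. Under the 18 alternatives, 0 to 3 members had such a p. Lpo was among them with normexp, the stricter filter, trended and robust moderation, crossed pairs and without Myd88+/+ array 1. Duox1 was not among them with scaling by the median or without Myd88+/+ array 2. Arrays of different labels were fully separated, without overlap, for 11593 genes, 52% of all (33.2% higher and 18.7% lower in Myd88-/- SGs). Among the 6 members, 3 did not overlap, with Lpo and Duox1 higher and Mpo lower, a share near this background. The separation of Mpo rests on the same values below background. Scaling by the median left 3050 genes without overlap. With 2 arrays against 2, the smallest p of an exact permutation test is 0.333. The median log2 difference was 0.15 over the 6 members, also with Mpo at its bound, and 0.06 over all genes tested. The excess of higher over lower genes depends on scaling. It was 59.0% higher of the genes with an unadjusted p under 0.05, but 46.7% with the percentile taken over detected probes, 41.6% with cyclic loess and 24.1% with scaling by the median. The directions of the 5 members other than Mpo were the same under each of these scalings.

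**Figure D2:**
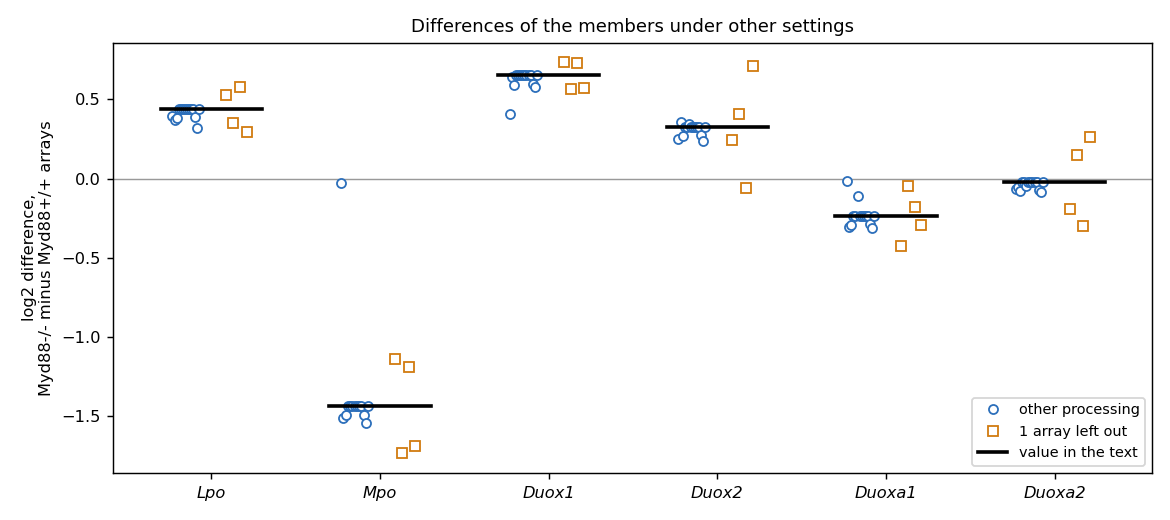
Log2 difference of each of the 6 members tested, as given in the text (bars), with other processing (circles) and with 1 array left out (squares). Lpo, Duox1 and Duoxa1 keep their side of the zero line throughout, the values of Mpo rest on signals below background, and squares of Duox2 and Duoxa2 lie on both sides of it.

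**Figure D3:**
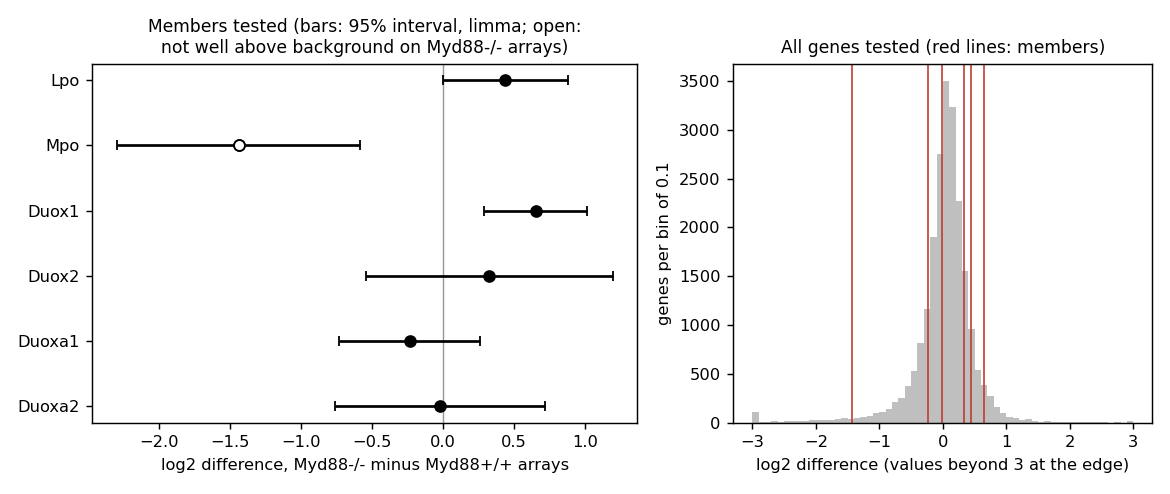
Left, log2 difference between Myd88-/- and Myd88+/+ SGs for the 6 members tested, with the 95% interval from limma; the open point of Mpo marks a gene not well above background on the Myd88-/- arrays. Right, the same difference for all 22312 genes tested in bins of 0.1, with the members as red lines. The interval of Duox1 leaves out 0 and that of Lpo reaches just below it, while the value and interval of Mpo rest on signals below background. All but Mpo lie in the main body of the distribution.

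The members lie in 2 groups on the chromosomes. On chromosome 11 the downstream probe of Mpo and the probe of Lpo are 2177 bases apart on opposite strands, so that the genes point towards each other, and Epx follows 58.2 kb beyond Lpo. On this stretch Lpo was higher and the downstream probe of Mpo lower in Myd88-/- SGs. The nearest other gene between Lpo and Epx, Mks1, which encodes a protein of the ciliary base, had log2 signals of 2.76 and 2.97 against 2.23 and 2.08. Its arrays did not overlap, and its log2 difference was 0.71 (SE 0.13, unadjusted p = 0.00723, adjusted p = 0.204 from limma). On the far side of Mpo, Bzrap1 differed by -0.35 (SE 0.61, adjusted p = 0.812 from limma), and Olfr462 beyond Epx was not tested. On chromosome 2 the order of probes is Duox2, then the interleaved probes of Duoxa2 and Duoxa1, then Duox1, over 67.3 kb. Duox2 and Duoxa1 were read from the minus strand, Duoxa2 and Duox1 from the plus strand. The flanking genes Sord and Shf differed by 0.08 (SE 0.11) and -0.13 (SE 0.14). Duox1 therefore lay higher on the Myd88-/- arrays without a like difference in the probes on either side of it.

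**Figure D4:**
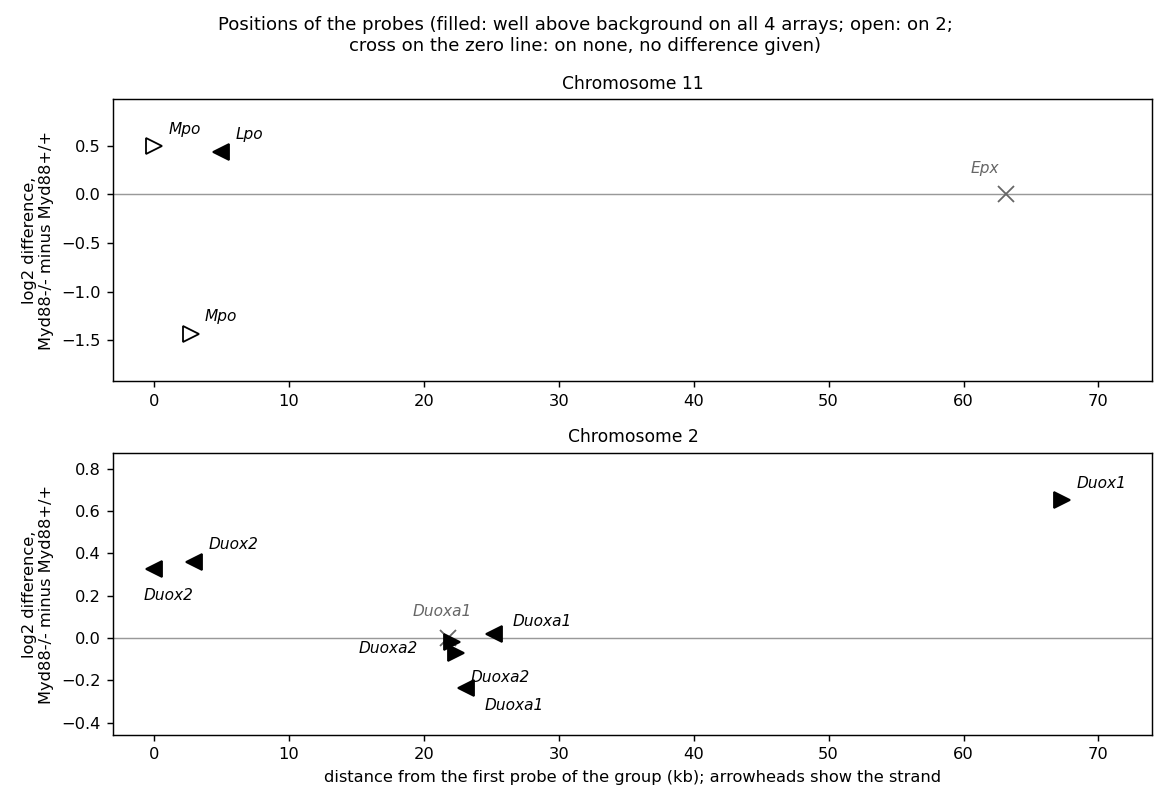
Log2 difference of each probe against its distance in kb from the first probe of its chromosome, with arrowheads pointing along the strand read. Filled symbols were well above background on all 4 arrays. Open symbols, both of Mpo, were so on 2, and their differences rest on values below background or surrogates. Crosses on the zero line are probes detected on no array, for which no difference is given. Lpo and the downstream probe of Mpo are neighbours, and Duox1 stands above the maturation factors.

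The promoters of the members were described by their letters. RefSeq promoter sequences (GRCm38.p6), 250 bases before to 50 after the start, were matched for all 7 members. They are shown for Lpo (chr11:87826065-87826364, minus strand), for Duox1 (chr2:122315422-122315721, plus strand) and for Duoxa2 (chr2:122298650-122298949, plus strand), whose promoter held 2 of the motifs searched, with matches in capitals.
Lpo: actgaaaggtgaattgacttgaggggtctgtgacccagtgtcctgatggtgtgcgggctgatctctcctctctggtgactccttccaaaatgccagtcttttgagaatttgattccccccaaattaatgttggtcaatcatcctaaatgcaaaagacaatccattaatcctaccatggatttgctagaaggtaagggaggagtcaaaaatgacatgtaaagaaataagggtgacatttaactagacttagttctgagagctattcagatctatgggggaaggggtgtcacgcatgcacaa
Duox1: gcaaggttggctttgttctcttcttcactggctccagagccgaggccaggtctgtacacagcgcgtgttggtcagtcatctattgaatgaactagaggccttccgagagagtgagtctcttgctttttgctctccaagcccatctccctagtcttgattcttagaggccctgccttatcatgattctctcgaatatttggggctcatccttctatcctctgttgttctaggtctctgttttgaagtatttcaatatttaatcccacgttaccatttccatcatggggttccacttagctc
Duoxa2: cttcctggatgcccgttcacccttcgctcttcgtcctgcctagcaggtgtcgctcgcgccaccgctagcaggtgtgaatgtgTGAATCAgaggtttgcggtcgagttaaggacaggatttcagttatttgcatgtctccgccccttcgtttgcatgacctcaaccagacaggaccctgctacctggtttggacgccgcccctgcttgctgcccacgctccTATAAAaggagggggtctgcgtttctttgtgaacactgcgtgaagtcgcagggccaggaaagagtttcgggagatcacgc
The motifs searched on both strands were TATAAA and the consensus sites of AP-1, STAT and NF-kB, which 13.6%, 7.81%, 8.30% and 4.51% of all 32851 promoters hold. None of these letters occurred in the windows of Lpo and Duox1. Duoxa2 held TATAAA from base -30 relative to the start and the AP-1 letters from base -168, without overlap. Epx held TATAAA and 1 NF-kB match, and the windows of Mpo, Duox2 and Duoxa1 held none. CpG dinucleotides numbered 2 each in Lpo and Mpo, 5 in Epx, 6 in Duox1, 10 in Duox2, 19 in Duoxa2 and 22 in Duoxa1, with a median of 7 over all promoters. A match describes the letters only.

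Genes whose values ran most like those of a member were sought among all genes tested, by the Euclidean distance between log2 values centred on each gene's mean over the 4 arrays. For Lpo these were Pvt1, Adora1, 1700019N12Rik, Tcta and 5830418K08Rik, at distances of 0.0162 to 0.0388, with log2 differences of 0.42 to 0.45. For Duox1 they were 1700034O15Rik, Arhgap28, Gm9910, 1300014J16Rik and an interval named only by position, at 0.0289 to 0.0595. No such genes are given for Mpo, since its values were below background on the Myd88-/- arrays. Pcdhb14 was nearest among named genes to Duox2 at 0.110, beside AK043382, 2 intervals and an unnamed probe. Rhox10, 4930430D24Rik and Pira7 were near Duoxa1, and Tsr2, Dtwd2 and Wnt10a near Duoxa2, the others being intervals or an unnamed probe. With 4 arrays such likeness is a description of these values only.

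The enzymes and carriers around the peroxidase system were taken from lists. Of the other haem peroxidase genes, Ptgs2 was below background on all arrays, and Ptgs1 and Pxdn differed by 0.21 and 0.07. Of 12 genes of phagocyte and other NADPH oxidases, 10 were tested, 8 were lower and 2 higher, and 3 had an unadjusted p under 0.05, all lower in Myd88-/- SGs, where 6.83% of all genes were lower at such a p. Their median log2 difference was -0.38, against 0.06 over all genes. Rac2, the GTPase of the leukocyte oxidase, had log2 signals of -0.84 and -1.05 against 1.47 and 0.65, a difference of -2.01 (SE 0.33, adjusted p = 0.198 from limma). Ncf4, a cytosolic subunit, differed by -1.63 (SE 0.23, adjusted p = 0.194) and Cyba, a membrane subunit, by -0.56 (SE 0.15, adjusted p = 0.247). The highest was Noxo1, an organizer of Nox1, at 0.27, and Nox3 was below background on all arrays. Rac2, Ncf4 and Cyba thus stood lower while Duox1 stood higher in Myd88-/- SGs.

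Of 8 carriers of thiocyanate, iodide and other anions, 7 were tested, with a median log2 difference of 0.07. Slc26a7, an anion exchanger, had log2 signals of -1.94 and -1.76 against -2.86 and -2.73. The groups were apart, with a log2 difference of 0.95 (SE 0.13, unadjusted p = 0.00217, adjusted p = 0.194 from limma). The lowest of the list was Cftr at -0.18 (SE 0.25). All 18 genes of peroxide removal were tested, with 9 higher, 9 lower and a median of 0.00. Gpx2, a glutathione peroxidase of epithelia, was 3.85 and 3.69 against 2.78 and 2.89, a log2 difference of 0.93 (SE 0.12, adjusted p = 0.194 from limma). Txnrd1 differed by 0.44 (SE 0.13) and Gpx3, the lowest, by -0.60 (SE 0.28). The 3 superoxide dismutases were all lower, from -0.07 for Sod1 to -0.79 for the extracellular Sod3 (SE 0.10, adjusted p = 0.194 from limma). Haem is the cofactor of Lpo. Of 11 genes of haem synthesis and turnover, 8 were higher and 3 lower, with a median of 0.07. Alad and Cpox were higher at an unadjusted p under 0.05, at 0.40 and 0.33, and Fech was lowest at -0.15. Over all genes, 9.82% were higher at such a p, and a link of these genes to Lpo was not tested.

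**Figure D5:**
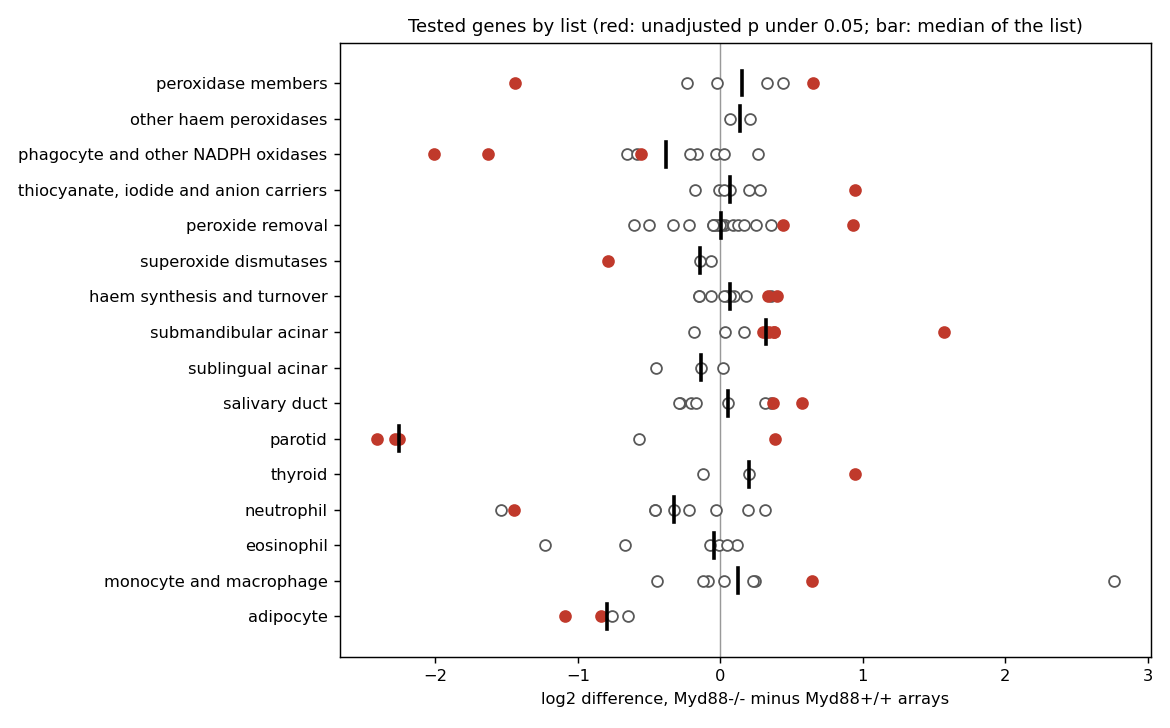
Log2 difference between Myd88-/- and Myd88+/+ SGs for each tested gene of the lists, 1 point per gene, with red points for an unadjusted p under 0.05 and a bar at the median. B cell, T cell and skeletal muscle lists, whose genes reach far below the axis, are not drawn. Of the members, Duox1 lies highest at 0.65 and Mpo, with signals below background, lowest, around a median of 0.15, and the NADPH oxidase list reaches down to -2.01.

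Markers of the cells that could carry these transcripts are given beside them. All 9 genes listed as submandibular acinar markers were tested, and 8 were higher and 1 lower in Myd88-/- SGs, with a median log2 difference of 0.32. Of these, 6 (Prol1, Smgc, Pip, Dcpp1, Dcpp2 and Dcpp3) were higher at an unadjusted p under 0.05. The others, Aqp5, Bhlha15 and Bpifa2, differed by only 0.17 (SE 0.12), 0.03 (SE 0.10) and -0.18 (SE 0.26). Whether submandibular acinar cells or other cells of SMGs and SLGs make the 6 genes was not tested, so the list name assigns no cell type. Over all genes, 9.82% were higher at such a p, and with scaling by the median only 240 of the 22312. The summed level of the 9 genes, in multiples of the 75th percentile, was 9572 and 9174 against 7085 and 7555. The brightest of them was Dcpp2, at 0.34 (SE 0.11). Lpo shared the direction of these sums between the labels but not between the arrays of a label, and their part in its difference was not tested. Salivary duct markers, led by Klk1, had a median of 0.05 over 9 genes, with 5 higher and 4 lower. Of these, 2 (Ascl3 at 0.57 and Krt7 at 0.37) were higher at an unadjusted p under 0.05, beside the 9.82% of all genes. Their summed levels were 1182 and 1152 against 1059 and 1191, nearly all from Klk1, which differed by 0.05. Sublingual acinar markers, led by Muc19, had a median of -0.13 over 3 tested genes of 5, and their sums were 393 and 344 against 383 and 423. Parotid markers, led by Car6, had a median of -2.25 over 5 genes, with 4 lower, and sums of 2452 and 1842 against 2770 and 2674. Car6 itself was the 1 higher gene, at 0.39 (SE 0.10, adjusted p = 0.233 from limma), so these sums mix both directions. Duox2 and Duoxa2 also serve hormone synthesis in the thyroid. Of the thyroid markers, Nkx2-1 and Iyd were below background on all arrays, and the 3 tested, led by Slc26a7, had a median of 0.20. Tg was well above background on all arrays, at -3.01 and -1.94 against -1.84 and -2.87, a log2 difference of -0.12 (SE 0.55).

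Of 15 neutrophil markers, 9 were tested, with 7 lower, 2 higher and a median log2 difference of -0.33. S100a9 had an unadjusted p under 0.05, at -1.45 (SE 0.50, adjusted p = 0.296 from limma). The sum was 162 and 172 against 158 and 187, nearly all of it from Csf3r, which differed by -0.03, and Mmp9 was below background on all arrays. Arrays did not overlap for 4 of the lower genes and 1 of the higher, where 18.7% and 33.2% of all genes did so. Besides S100a9, these lower genes were S100a8 at -1.54 (SE 0.59), Camp at -0.46 (SE 0.18) and Ly6g at -0.46 (SE 0.25). The 2 higher were Elane and Ctsg, which like Mpo encode proteins of primary granules, at 0.20 (SE 0.14) and 0.32 (SE 0.34). Prtn3, another such gene, was well above background on 2 arrays only and was not tested. The part of neutrophils in the lower downstream probe of Mpo was not tested. The 9 eosinophil markers, of which 6 were tested, had a median of -0.04, with sums of 3.41 and 4.77 against 4.71 and 3.70 and Ear2 as the brightest. Ear2 was well above background on all arrays, but Prg2, Prg3 and Alox15 were so on only 2 arrays each and were not tested. Epx was so on none, and whether the tissue held eosinophils was not tested. Monocyte and macrophage markers, led by Itgam, had a median of 0.13 over 8 genes, with sums of 77.9 and 77.8 against 70.8 and 71.6.

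Lists of lymphocyte, skeletal muscle and adipocyte markers had lower sums in Myd88-/- SGs, where 6.83% of all genes were lower at an unadjusted p under 0.05. The sums were 2.18 and 2.01 against 15.0 and 8.09 for 7 B cell markers (Cd79a brightest; 5 of 5 tested lower at such a p, 2 of them below background in Myd88-/- SGs), and 14.6 and 13.7 against 25.2 and 20.3 for 7 T cell markers. All 7 of the latter were tested and 3 were lower at such a p, while Cd4, the brightest, and Cd3e differed by only -0.04 and -0.06 with overlapping arrays. Cd8a was below background on both Myd88-/- arrays, and Cd3d and Cd3g each on 1 array. For 6 skeletal muscle markers, led by Acta1, they were 2.32 and 2.24 against 18.8 and 108, with 5 of 5 tested lower at such a p, of which Myh4 was below background on both Myd88-/- arrays. For 5 adipocyte markers they were 140 and 221 against 302 and 309, led by Fabp4, with 2 of 4 tested lower at such a p, a median of -0.80 and Lep below background. The downstream probe of Mpo, Rac2 and Ncf4 were lower beside the lymphocyte genes, and Lpo and Duox1 higher, and whether tissue makeup shifted any of them was not tested. Of the sex markers, Xist was detected on all arrays, at a log2 difference of -0.16, while Ddx3y, Kdm5d and Eif2s3y were below background on all and Uty on 2.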

How the data were processed

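SG expression was analysed on 4 arrays, 2 labelled Myd88-/- and 2 labelled Myd88+/+. The authors deposited the output of Agilent Feature Extraction 10.7.3.1 for each array, all on 1 slide. Per the file headers, the deposited processed signal is an intensity corrected for background and spatial trends, in which dim spots hold surrogate values and arrays are not normalized to each other. Deposited mean spot and median background intensities carry no correction. Deposited flags mark outliers and spots well above background. A processed table of the series was not used, because its 4 columns could not be assigned to samples.

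Log2 processed signals of 59305 non-control spots were taken minus each array's 75th percentile. Outlier spots (99 to 131 per array) were left out, and spots of a probe averaged. A probe was tested when well above background, in a share of spots over 0.5, on both arrays of a label, and each gene was represented by its brightest tested probe. Of the 22312 genes tested, 1264 are probes without a gene name. Labels were compared by lmFit and eBayes of limma 3.58.1 (R 4.3.3) with Benjamini-Hochberg adjustment over all genes, tested on simulated data. Python 3.11.15 with pandas 2.3.3 was used for lists and sequences. The number of arrays limits the precision.

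The members and lists were chosen with earlier results of these data known. The genes named are the members, Myd88, the highest and lowest gene of each pathway list and those with an unadjusted p under 0.05, the brightest marker of each cell list and markers below background on all arrays, the 5 genes nearest in pattern to each member tested but Mpo, and chromosome neighbours. A few others, such as Elane and Ctsg, were chosen after their values were seen. For 1 listed gene the values are not reported here. Of 160 listed genes, 156 were found by name and 3 by an older name in the RefSeq table (GRCm38.p6). Prol2 was not matched. Alternatives were normexp (offset 50), quantile normalization, 2 other filters, other choices of probe and flags, the methods' t-test, trended and robust moderation, a replicate block and each array left out. Added after seeing the data were the median, cyclic loess and crossed pairs.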

Additional observations from a re-analysis of the deposited data

How the results depend on the processing

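No member passed the adjusted threshold in any of the 18 alternatives, where adjusted p ranged from 0.118 to 1.00 for Lpo and from 0.122 to 1.00 for Duox1. The stricter filter leaves out Mpo, whose differences rest on Myd88-/- values below background and were -0.03 with normexp. Lpo, Duox1 and Duoxa1 kept their direction in all of them. With 1 array left out, when the lone array is assumed to vary like the others, log2 differences lay between 0.30 and 0.58 for Lpo, 0.57 and 0.74 for Duox1 and -0.42 and -0.05 for Duoxa1. Duox2 lay between -0.062 and 0.71, reversed without Myd88+/+ array 1, and Duoxa2 between -0.30 and 0.26, reversed without Myd88-/- array 2 (0.15) or Myd88+/+ array 2. The cause was not tested. Epx had no value to vary.

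Genes past the adjusted threshold numbered 0, but 79 with normexp, 482 with trended and robust moderation, 1 with the methods' t-test and 402 with scaling by the median. Why these counts differ was not tested. Genes with an unadjusted p under 0.05 fell from 3715 to 995 with scaling by the median, and numbered 1520 without Myd88-/- array 1, 2314 without Myd88+/+ array 1 and 1355 without Myd88+/+ array 2 (at most 3065). Genes without overlap numbered 3050 instead of 11593 with scaling by the median, and 16867 to 20538 with 1 array left out, where fewer arrays overlap less. Replicate numbers did not pair the arrays, since same-numbered arrays deviated in opposite ways over genes (r = -0.373). With the replicate number as a block in limma, 2410 genes had an unadjusted p under 0.05 and 0 passed adjustment. With crossed pairs, 4157 had an unadjusted p under 0.05 and 0 passed. Signal over background limits Mpo, Epx and the third Duoxa1 probe.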
